A study of Mus musculus with 21 samples.

Results

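The proneural basic helix-loop-helix (bHLH) factors of the dorsal cortex were followed through 6 genes, Neurog1, Neurog2, Neurod1, Neurod2, Neurod4 and Neurod6. The members were chosen as the probe sets annotated to these genes, which gave 12 of the 45101 probe sets of the array, and 11 of them were among the 29474 probe sets tested. Rostral cerebral cortex was taken at embryonic day 14 from mice, and its total RNA was hybridised to 21 Affymetrix arrays, 1 per sample. Sey mutants (4 arrays) and their littermate controls (3 arrays) were on the strain C57BL/6J x DBA/2J (B6D2F1). Leca4 mutants (3 arrays) with their controls (4 arrays), and Leca2 mutants (4 arrays) with their controls (3 arrays), were on the strain 129 S6. The control animals carry the genotype label wild type, and no group was treated. The mutations are in Pax6, a transcription factor of cortical progenitors that binds DNA through a paired domain and a homeodomain. The series title sets the question: what the subdomains of the paired domain each contribute to neurogenesis and to proliferation. From general knowledge and not from the labels, Sey is a truncating allele, and the Leca4 and Leca2 alleles each change 1 residue, in the PAI and the RED subdomain of the paired domain in that order. The labels call the replicates biological, but give neither the zygosity of the mutants nor the litters behind the replicates. P-values therefore rest on sample-to-sample spread, part of which may be technical. All groups of a line share its strain, and Sey differs from both Leca lines in strain as well as in allele, so that line and strain cannot be told apart.

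Proneural bHLH factors bind short DNA motifs called E-boxes as partners of the E proteins Tcf3, Tcf4 and Tcf12, and they commit progenitors to a neuronal fate. In the dorsal cortex Neurog2 and Neurog1 act in radial glia and intermediate progenitors, while Neurod1, Neurod2 and Neurod6 are used later, in intermediate progenitors and young glutamatergic neurons. Neurod4 is a further neuronal differentiation gene switched on downstream of neurogenins. Id proteins bind E proteins and keep them from pairing with proneural factors, and Notch signalling through Hes repressors holds proneural genes down in neighbouring cells. Pax6 is known to activate Neurog2 in cortical progenitors.

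The starts of the genes are shown because 3 of them, Neurog1, Neurog2 and Neurod4, were at least 2.44-fold lower in Sey mutants. Each line gives the 250 bases before the start of a gene, 5′ to 3′ on the gene's strand, from RefSeq on GRCm38.p6, with E-boxes (CANNTG) in capitals. Neurod2 is given beside them as the member with the most E-boxes. The windows hold:
Neurog1 (chr13:56252181-56252430, minus strand): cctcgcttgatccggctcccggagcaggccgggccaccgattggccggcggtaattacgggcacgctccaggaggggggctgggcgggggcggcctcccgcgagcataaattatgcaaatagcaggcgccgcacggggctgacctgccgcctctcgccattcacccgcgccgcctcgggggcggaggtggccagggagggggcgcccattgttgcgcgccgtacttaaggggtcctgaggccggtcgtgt
Neurog2 (chr3:127632886-127633135, plus strand): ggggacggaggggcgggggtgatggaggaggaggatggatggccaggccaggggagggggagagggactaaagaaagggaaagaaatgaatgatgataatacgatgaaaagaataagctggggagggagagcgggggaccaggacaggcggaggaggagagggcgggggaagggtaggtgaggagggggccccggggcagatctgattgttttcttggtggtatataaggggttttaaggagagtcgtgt
Neurod4 (chr10:130280255-130280504, minus strand): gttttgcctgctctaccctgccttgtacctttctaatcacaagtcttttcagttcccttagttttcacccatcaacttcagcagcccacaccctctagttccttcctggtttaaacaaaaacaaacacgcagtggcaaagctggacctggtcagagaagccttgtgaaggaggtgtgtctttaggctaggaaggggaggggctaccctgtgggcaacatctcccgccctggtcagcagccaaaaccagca
Neurod2 (chr11:98329646-98329895, minus strand): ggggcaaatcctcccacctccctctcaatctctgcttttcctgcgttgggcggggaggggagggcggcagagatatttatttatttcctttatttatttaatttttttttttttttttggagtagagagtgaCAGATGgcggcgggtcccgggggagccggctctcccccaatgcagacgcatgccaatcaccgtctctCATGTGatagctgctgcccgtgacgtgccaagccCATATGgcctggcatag
All 6 genes matched, with 7 windows in all, since Neurod4 has a second start. The 2 Neurod4 windows overlap, so they share bases and are not separate counts. CANNTG, searched on both strands, was found in 3 of the 7 windows, against 66.2% of 32851 mouse promoter windows of this length. Neurod2 had 3 matches, Neurod6 had 2 and Neurod1 had 1, and the windows of Neurog1, Neurog2 and Neurod4 had none. CAGATG and CAGCTG are both forms of CANNTG, so these searches overlap with it. CAGATG was present in the Neurod2 window alone among the members and in 14.4% of all windows. CAGCTG was in no member window and in 13% of all windows. A palindrome of TAAT and ATTA with 3 bases between them, which paired-type homeodomains bind as dimers, was in no member window and in 0.463% of all windows. A match is a description of letters and says nothing of binding, and a window without one says nothing of the factor. The 6 genes lie on 6 chromosomes, and Neurod1 shares chromosome 2 with Pax6, with 362 protein-coding genes between them.

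Array medians were 6.03 to 6.07 log2 units in the Sey line, 6.25 to 6.26 in the Leca4 line and 6.11 to 6.18 in the Leca2 line, and arrays of a group correlated at Pearson's r of 0.993 to 0.997 across probe sets. The Gapdh 3′ minus 5′ signal, a sign of RNA quality, was -0.175 to -0.128 in Sey mutants and -0.162 to -0.127 in their controls, and -0.085 to 0.014 in Leca4 mutants and -0.115 to -0.084 in their controls. It was -0.052 to 0.001 in Leca2 mutants and -0.088 to -0.057 in their controls, without overlap, and its part in the results was not tested. The lines appear to have been normalised apart, so levels are compared within a line only. An array's 40th percentile, 5.37 to 5.60, was taken as the level below which a value gives only a bound. Cortical marker genes averaged 11.29 to 11.74 log2 units in every array, and none of the 7 tested was below that level in any group. In Sey mutants 3 of the 7 rose, Emx2 by 0.72, Sox2 by 0.55 and Lhx2 by 0.40, and 2 fell, Tbr1 with a change of -0.86 and Dcx with -0.29, and none was called in either Leca line. The Sey calls of Emx2 and Lhx2 were lost with a term for sex or a replicate block, and that of Sox2 with only the groups compared. Lhx2 was also lost under 3 of 21 settings that left out an array. The Dcx call was lost under 6 of 13 other settings and 5 of 21 that left out an array, and that of Tbr1 under none. Pax6 RNA was measured in all groups, and its brightest probe set was higher by 0.56, 0.49 and 0.93 log2 units in Sey, Leca4 and Leca2 mutants than in their controls (adjusted p of 0.000335, 0.00483 and 2.54e-05). The other 3 Pax6 probe sets did not pass in Leca4, with changes of 0.17, 0.16 and 0.07 (adjusted p of 0.65, 0.36 and 0.671), while 2 of them passed in Sey and 2 in Leca2. This reads Pax6 RNA and does not test the protein or the alleles. In whole tissue, fewer cells of a type and less RNA per cell cannot be told apart, and precision is set by the small number of arrays.

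Neurog1 moved in opposite directions in the lines: it fell in Sey and Leca2 mutants and rose in Leca4 mutants. In Sey mutants, probe set 1438551_at read 5.42, 5.62, 5.40 and 5.66 log2 units, against 8.26, 8.00 and 8.33 in their controls. In Leca4 mutants it read 10.59, 10.36 and 10.66, against 9.24, 9.16, 8.96 and 9.42 in controls. In Leca2 mutants it read 8.00, 7.56, 7.19 and 7.76, against 9.31, 8.95 and 8.93 in controls. In no line did mutants and controls overlap, and the Sey mutants lay close to the 40th percentile of their arrays, where a log2 value understates a loss. The change in Sey mutants was -2.67 ± 0.16 log2 units (SE), a 6.37-fold lower level (limma, adjusted p = 1.33e-09). The change in Leca4 mutants was 1.34 ± 0.16, a 2.53-fold higher level (adjusted p = 3.11e-05). The change in Leca2 mutants was -1.43 ± 0.16, a 2.70-fold lower level (adjusted p = 7.69e-05), and with the spread estimated from the 2 Leca2 groups alone its adjusted p was 0.0549. Neurog1 was the only member called in the Leca4 line. With the 2 probe sets of the gene averaged the direction was the same in each line and the changes were smaller, -1.46 in Sey, 0.70 in Leca4 and -0.78 in Leca2 mutants. The second probe set, 1450836_at, lay at 4.94 to 6.02 on all arrays, near or below the 40th percentile, and passed the test in no line, with changes of -0.25, 0.07 and -0.14 in Sey, Leca4 and Leca2.

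Neurog2, the main neurogenin of cortical radial glia, fell 3.06-fold in Sey mutants and was called in neither Leca line. Probe set 1422839_at read 10.60, 11.00, 10.49 and 10.75 log2 units in Sey mutants, against 12.35, 12.29 and 12.33 in controls. It read 12.29, 11.98 and 12.32 in Leca4 mutants, against 12.11, 12.50, 12.25 and 12.09 in controls. It read 12.01, 11.91, 11.74 and 12.12 in Leca2 mutants, against 12.50, 12.39 and 12.40 in controls. The Sey groups stood far apart, the Leca4 groups were mixed together, and all 4 Leca2 mutants lay below all 3 controls by a narrow margin. The changes were -1.61 ± 0.12 in Sey (adjusted p = 3.57e-08), -0.04 ± 0.12 in Leca4 (adjusted p = 0.924) and -0.48 ± 0.12 in Leca2 (adjusted p = 0.127). The Leca4 interval ran from -0.29 to 0.22 log2 units. The Leca2 interval, unadjusted for the number of probe sets, ran from -0.74 to -0.23, and its adjusted p lay between 0.0501 and 0.392 over the other settings tried.

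The relation of the 2 neurogenins within an array was examined after their values had been seen. The difference Neurog1 minus Neurog2 was taken in each array, its offset having no meaning across probe sets, and compared between mutants and controls. It changed by -1.06 log2 units in Sey mutants, by 1.38 in Leca4 mutants and by -0.95 in Leca2 mutants, always mutants minus controls. In each of the 3 lines the mutants lay wholly to 1 side of the controls. Since the comparison was chosen from the same values, these differences are a description with no test.

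Neurod4, a neuronal differentiation gene, fell in Sey and Leca2 mutants. In Sey mutants, probe set 1436694_s_at read 5.13, 4.88, 4.72 and 4.88 log2 units, against 7.36, 7.50 and 7.71 in controls. In Leca4 mutants it read 7.47, 7.66 and 7.81, against 7.95, 8.31, 8.13 and 7.89 in controls. In Leca2 mutants it read 6.87, 6.54, 6.36 and 6.72, against 8.20, 8.06 and 8.08 in controls. The Sey mutants all lay below the 40th percentile of their arrays, so Neurod4 RNA was at least 4.38-fold lower there by this probe set. The Leca2 mutants lay above the 40th percentile and wholly below their controls, as did the Leca4 mutants by a narrow margin. The fitted changes were -2.62 ± 0.13 in Sey (adjusted p = 1.2e-10), -0.43 ± 0.13 in Leca4 (adjusted p = 0.0751) and -1.49 ± 0.13 in Leca2 (adjusted p = 6.78e-06).

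A second Neurod4 probe set ran the same way in the Sey and Leca2 lines. Probe set 1418054_at read 3.42, 3.44, 3.34 and 3.51 in Sey mutants, against 6.65, 6.51 and 6.86 in controls, a level at least 2.44-fold lower (fitted change -3.25 ± 0.14, adjusted p = 1.83e-11). It read 7.49, 7.12 and 7.76 in Leca4 mutants, against 7.57, 7.93, 7.52 and 7.68 in controls, a change of -0.22 ± 0.14 (adjusted p = 0.472). It read 6.28, 5.96, 5.95 and 5.75 in Leca2 mutants, against 7.80, 7.74 and 7.90 in controls, a change of -1.83 ± 0.14 (adjusted p = 1.1e-06). By this probe set the Leca4 mutants overlapped their controls, whereas by 1436694_s_at they did not, and neither passed the test. By p, the Neurod4 probe sets stood 6th and 12th of 29474 in Sey and 2nd and 3rd in Leca2. The remaining Neurod4 probe set, 1418055_at, lay below the 40th percentile on every array, at 3.38 to 4.23, and was not tested.

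**Figure D1:**
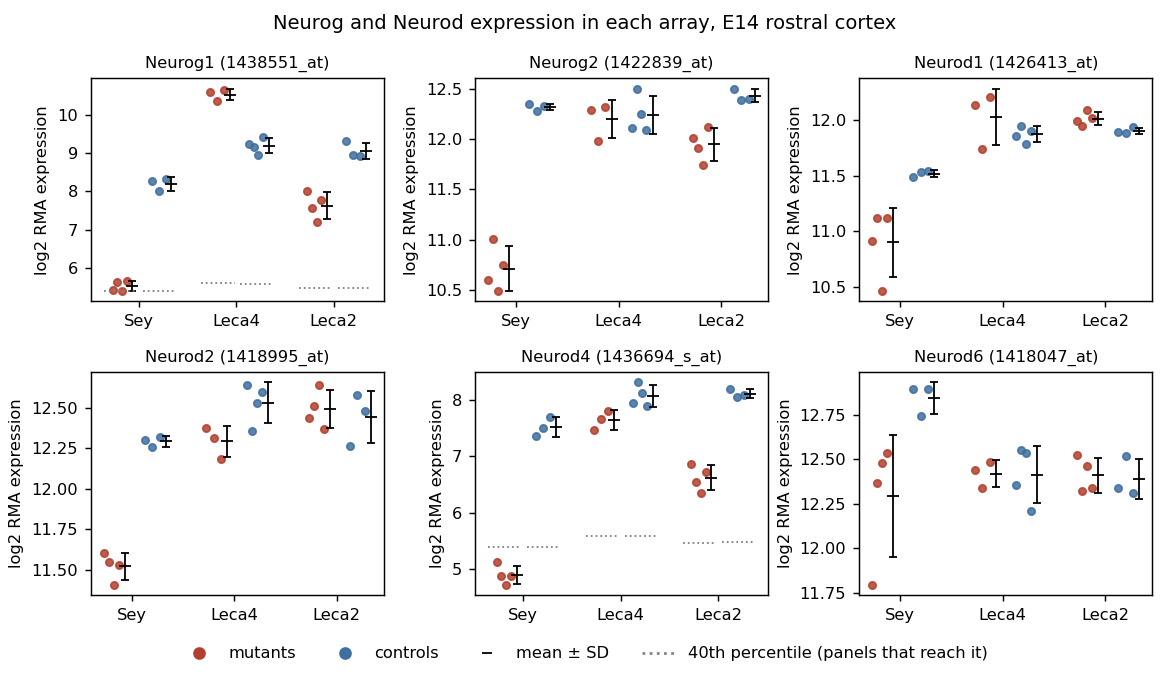
Log2 RMA expression of 1 probe set per gene in each of the 21 arrays, mutants (red) left of controls (blue) for the Sey, Leca4 and Leca2 lines, with mean and SD beside the points; each panel has its own vertical range, and the dotted line is the mean 40th percentile of the group's arrays. Neurog1 separates mutants from controls in all 3 lines with the Leca4 mutants above, Neurod4 reaches 4.72 in Sey mutants, and Neurod1, Neurod2 and Neurod6 are apart in Sey alone except for a narrow gap of Neurod1 in Leca2.

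The Neurod genes of later stages fell in Sey mutants, with fitted changes nearer to 0 than those of the neurogenins, and were called in neither Leca line. Neurod1, used in intermediate progenitors and new neurons, read 10.91, 11.12, 10.46 and 11.12 log2 units in Sey mutants by probe set 1426413_at, against 11.48, 11.53 and 11.54 in controls. The groups did not overlap, the change was -0.62 ± 0.12 (adjusted p = 0.0018), and the other probe set, 1426412_at, gave -0.71 ± 0.12 (adjusted p = 0.000445). In Leca4, 1426413_at read 12.14, 11.74 and 12.21 in mutants, against 11.86, 11.95, 11.78 and 11.90 in controls. In Leca2 it read 11.99, 11.95, 12.09 and 12.01 in mutants, against 11.89, 11.88 and 11.93 in controls, so that the mutants lay just above all controls. The changes of 0.16 ± 0.12 in Leca4 and 0.11 ± 0.12 in Leca2 did not pass (adjusted p of 0.597 and 0.967), with intervals from -0.10 to 0.42 and from -0.15 to 0.37 log2 units.

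Neurod2, a factor of maturing glutamatergic neurons, read 11.61, 11.55, 11.41 and 11.53 log2 units in Sey mutants by probe set 1418995_at, against 12.30, 12.26 and 12.32 in controls. By probe set 1435411_at it read 10.56, 10.68, 10.50 and 10.53 in Sey mutants, against 11.44, 11.42 and 11.44 in controls. The mutants were tightly grouped and wholly below the controls by both, with changes of -0.77 ± 0.08 (adjusted p = 3.61e-06) and -0.87 ± 0.07 (adjusted p = 1.67e-07). In Leca4 mutants 1418995_at read 12.38, 12.31 and 12.19, against 12.64, 12.35, 12.53 and 12.60 in controls, with overlap at 1 array of each group. That change, -0.24 ± 0.08, and the -0.20 ± 0.07 of 1435411_at did not pass (adjusted p of 0.138 and 0.168). Their intervals, unadjusted for the number of probe sets, ran from -0.41 to -0.06 and from -0.35 to -0.04. In Leca2 mutants 1418995_at read 12.44, 12.51, 12.64 and 12.37, against 12.27, 12.58 and 12.48 in controls. The Leca2 groups were mixed, and the interval of the change ran from -0.13 to 0.23 log2 units. The remaining probe set, 1444362_at, lay at 5.77 to 5.84 in Sey mutants and 5.70 to 6.05 in their controls, below the 40th percentile in both Leca lines, and passed in no line.

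Neurod6, a marker and regulator of glutamatergic neurons, read 11.79, 12.37, 12.48 and 12.54 log2 units in Sey mutants, against 12.89, 12.74 and 12.90 in controls. All Sey mutants were below all controls, 1 of them by far more than the rest, and the change was -0.55 ± 0.13 (adjusted p = 0.00721). With the spread estimated from the 2 Sey groups alone the adjusted p was 0.0687. In Leca4 it read 12.44, 12.34 and 12.48 in mutants, against 12.36, 12.55, 12.54 and 12.21 in controls. In Leca2 it read 12.53, 12.32, 12.46 and 12.34 in mutants, against 12.34, 12.52 and 12.31 in controls. Both Leca lines were mixed, with intervals of the change from -0.27 to 0.28 in Leca4 and from -0.26 to 0.30 in Leca2.

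Across the members, 9 of 11 tested probe sets, covering all 6 genes, fell in Sey mutants and none rose, where 6.85% of all tested probe sets fell and 7.78% rose (14.6% called in all). The 2 not called were the dim second probe set of Neurog1 and the dim probe set 1444362_at of Neurod2. In the same Sey mutants 7 of 10 tested ventral telencephalon markers rose, and their part in the fall of the members was not tested. In Leca4 mutants 1 member probe set rose and none fell, against 2.13% of all probe sets that rose and 1.64% that fell (3.77% called in all). In Leca2 mutants 3 member probe sets of 2 genes fell and none rose, against 0.248% of all probe sets that fell (0.373% called in all). Mutants lay wholly below controls at 9 member probe sets in Sey, where 12.3% of all did, at 1 in Leca4, where 6.86% did, and at 4 in Leca2, where 4.28% did. They lay wholly above controls at 1 member probe set in Leca4 (6.62% of all), and at 1 in Leca2 (2.78% of all). Leaving out any 1 of the 21 arrays kept these counts of calls at 9, 1 and 3.

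**Figure D2:**
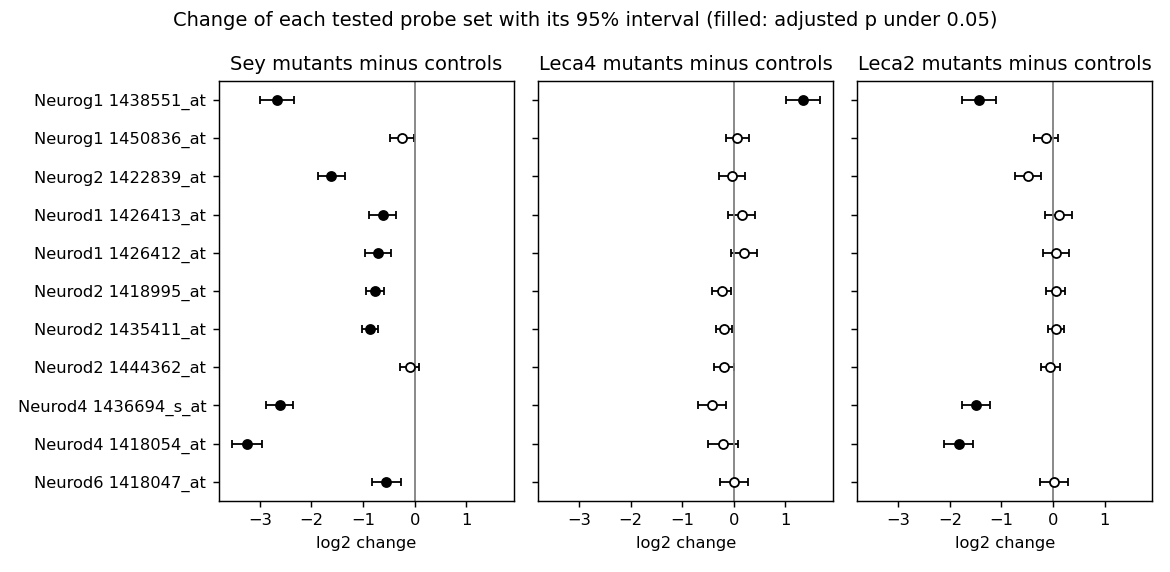
Log2 change of mutants over their littermate controls for the member probe sets tested, by line, with 95% confidence intervals from the limma fit. Neurog1 1438551_at stands at 1.34 in Leca4 against -2.67 in Sey and -1.43 in Leca2. Neurod1, Neurod2 and Neurod6 were called in neither Leca line, though the Leca4 intervals of Neurod2 lie below 0.

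The differences between lines were tested as differences of the changes. The Sey change was below the Leca4 change at 8 of 11 probe sets of 5 genes and above it at none, where 4.07% of all probe sets were called lower and 4.99% higher (9.07% in all). It was below the Leca2 change at 8 of 11 and above it at none, where 2.09% were called lower and 2.34% higher (4.43% in all). Both counts include the Neurod4 probe sets, whose Sey values lay below the 40th percentile, so that their differences have no exact size. By 1436694_s_at the Sey bound of 4.38-fold is larger than the 2.81-fold fall in Leca2, but by 1418054_at the bound of 2.44-fold is smaller than the 3.55-fold fall in Leca2, so for that probe set the order of these lines rests on values below this level. For Neurog1 the difference was -4.01 ± 0.22 log2 units between Sey and Leca4 (adjusted p = 1.75e-09) and -1.24 ± 0.22 between Sey and Leca2 (adjusted p = 0.00237). For Neurog2 the Sey change was below the Leca4 change by a difference of -1.57 ± 0.17 (adjusted p = 8.5e-06) and below the Leca2 change by -1.13 ± 0.17 (adjusted p = 0.000576). The Neurod6 differences, -0.56 against Leca4 and -0.57 against Leca2, did not pass (adjusted p of 0.0712 and 0.0967). Neurod1 1426413_at, with a difference of -0.73 between Sey and Leca2 (adjusted p = 0.022), no longer passed without Sey control replicate 2 (0.0514), without Leca2 control replicate 1 (0.058) or with a replicate block (0.0767). With a term for sex neither Neurod1 probe set passed between Sey and Leca2 (0.0993 and 0.0856), and the count was 6 of 11.

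The 2 Leca lines share their strain, and their changes differed at 3 of 11 member probe sets, all higher in Leca4, where 0.838% of all probe sets were called higher and 0.519% lower (1.36% in all). The Neurog1 difference was 2.77 ± 0.22 (adjusted p = 5.32e-07). The Neurod4 differences were 1.07 ± 0.18 by 1436694_s_at (adjusted p = 0.00359) and 1.61 ± 0.19 by 1418054_at (adjusted p = 9.44e-05). For Neurog2 the difference of 0.45 ± 0.17 did not pass (adjusted p = 0.232), and its interval ran from 0.09 to 0.80. For Neurod1, Neurod2 and Neurod6 the brightest probe sets gave differences of 0.05, -0.29 and -0.02, none of which passed, with intervals from -0.32 to 0.42, from -0.54 to -0.04 and from -0.41 to 0.38.

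The genes whose pattern over the 21 arrays was most like each member's are given as a description, by Pearson's r after the mean of the line's controls was taken from each value; arrays of a group share their genotype, so r reflects mostly the group means. Closest to Neurog1 were Pawr (r = 0.956), Oat (0.947) and Gas1 (0.937), and Pawr changed by -1.18 in Sey, 0.80 in Leca4 and -0.59 in Leca2 mutants. Closest to Neurog2 were Jph1 (0.980), Tuba4a (0.972) and Ptgfrn (0.969). Closest to Neurod4 were Rlbp1 (0.989), Cxcl12 (0.962) and Jph1 (0.959), with fitted Rlbp1 changes of -6.05, -1.12 and -3.12 in Sey, Leca4 and Leca2. Closest to Neurod2 were Enc1 (0.975), Mpped1 (0.972) and Cntn2 (0.968). Closest to Neurod6 were Tbr1 (0.956), Zbtb18 (0.943) and Rai2 (0.935). Neurod1 had the lowest best value, with Rtn4rl2 (0.917), Masp1 (0.902) and Hmgn3 (0.900). Jph1 was thus among the 3 closest for both Neurog2 and Neurod4.

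Partners and inhibitors of the bHLH factors changed in Sey mutants in both directions. All 7 listed E protein and Id genes were tested, and in Sey mutants 3 rose and 2 fell, where 9.65% of 13850 genes rose and 8.33% fell (18% called in all). Id3 rose by 1.76 ± 0.19 log2 units (adjusted p = 2.53e-06), Id1 by 1.15 ± 0.12 (adjusted p = 2.16e-06) and the E protein gene Tcf3 by 0.29. Id4 and Id2 fell in Sey mutants, with changes of -0.47 and -0.45. The Sey calls of Tcf3 and Id2 were lost with a replicate block, a 1.4-fold minimum or a term for sex. That of Tcf3 was also lost without Sey control replicate 2, and that of Id4 with the 1.4-fold minimum. In Leca4 mutants Id3 rose by 1.13 ± 0.19 (adjusted p = 0.00141) and no other gene of the list was called, where 2.88% of all genes rose and 1.66% fell (4.54% in all). In Leca2 mutants Id4 fell, with a change of -0.57 ± 0.09 (adjusted p = 0.0068), and no other was called, where 0.137% of all genes rose and 0.289% fell (0.426% in all). The Id4 call was lost with only the groups compared, with a replicate block and without Leca2 control replicate 1. The E protein genes Tcf4 and Tcf12 had changes between -0.05 and 0.07 in all 3 lines. Of 7 tested bHLH relatives of 11 listed, 3 rose in Sey mutants and none fell. Olig2 rose by 2.73, Ptf1a by 1.97 and Olig1 by 0.55, in the arrays where the ventral telencephalon markers rose. The Olig1 call (adjusted p = 0.0409) was lost under 2 of 13 other settings and 6 of 21 that left out an array. Ptf1a and Olig2 averaged 5.31 and 5.43 in Sey controls. That is close to the level below which a value gives only a bound, on average 5.39 there, so these rises have no exact size. No bHLH relative was called in either Leca line. The median change in Sey was 0.45 for the relatives and 0.07 for the E protein and Id genes, beside -0.00025 for all genes.

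Genes upstream of the neurogenins and in the Notch pathway changed in both directions. Of 13 tested upstream regulators of 15 listed, 5 rose and 4 fell in Sey mutants, where 9.65% of all genes rose and 8.33% fell. Dmrta1, a regulator of Neurog2, was at least 4.56-fold lower in Sey mutants, and in Leca4 mutants its change was -2.14 ± 0.28 (adjusted p = 0.00012). Dmrta1 averaged 5.57 in Leca4 mutants, close to the level below which a value gives only a bound. That level was on average 5.59 there, so this fall has no exact size. Hmga2 (-1.68) and Tfap2c (-1.46) also fell in Sey mutants. Pax6 and Dmrta1 were the 2 regulators called in Leca4, and Pax6 was the 1 called in Leca2. The lowest change of the list in Leca2, -1.25, was not called. With array weights or an adjusted p under 0.10, a further regulator was called in Leca2, and it fell. The Leca4 call of Pax6 was lost with only the groups compared in the fit, with a replicate block and with its probe sets averaged (adjusted p up to 0.0893). Of 20 Notch pathway genes, 5 rose and 2 fell in Sey mutants beside the same shares of all genes, and the median change was 0.03 for this list and -0.10 for the upstream regulators. The ligand gene Dll3 rose by 0.86 ± 0.11 (adjusted p = 2.58e-05), and Jag1, another ligand gene, fell with a change of -0.52 ± 0.07 (adjusted p = 3.05e-05). In Leca4 mutants 3 Notch genes rose, Jag1 by 0.89 ± 0.07 (adjusted p = 1.47e-07), Notch3 by 0.47 and Dll3 by 0.45, and in Leca2 mutants none was called. The Leca4 calls of Notch3 and Dll3 were lost with only the groups compared, with a replicate block, with a 1.4-fold minimum, and without Leca4 mutant replicate 1 or 3 or Leca4 control replicate 1 or 3, and that of Jag1 under none of the 34 settings tried. Dll1, the Notch ligand gene that neurogenins are best known to activate, had changes of 0.05 in Sey, 0.12 in Leca4 and -0.27 in Leca2, none of which passed (adjusted p of 0.837, 0.682 and 0.636).

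Genes described as downstream of the members are read beside the share of all genes called, 18% in Sey, 4.54% in Leca4 and 0.426% in Leca2. Of 18 genes described as targets of neurogenins, 4 rose and 6 fell in Sey, with a median change of -0.13, against -0.00025 for all genes. Eomes, the marker of intermediate progenitors, fell with a change of -1.64 ± 0.10 (adjusted p = 1.8e-09), and Cbfa2t2, a transcriptional co-repressor gene, with -0.51. The Cbfa2t2 call was lost with its probe sets averaged (adjusted p up to 0.0618). Gadd45g rose by 0.90 and Dll3 by 0.86. In Leca4 only Dll3 of these 18 was called, and in Leca2 only Nrarp, a Notch feedback gene, with a change of -0.48 ± 0.09 (adjusted p = 0.0202). The Nrarp call was lost with only the groups compared, a replicate block, a 1.4-fold minimum or a term for sex, and without Leca2 mutant replicate 2 or 3 or any 1 Leca2 control. Of 14 tested glutamatergic neuron genes of 17 listed, 11 fell and none rose in Sey, with a median change of -0.49, and 7 fell with a replicate block. Unc5d (-2.34), Nrp1 (-1.47) and Cux2 (-1.31) of migrating and upper-layer neurons and the glutamate transporter gene Slc17a6 (-1.18) were among them. In Leca4 mutants Nrp1 and Cux2 fell, each with a change of -0.57. The Cux2 call (adjusted p = 0.0457) was lost under 4 of 13 other settings and 13 of 21 that left out an array, and that of Nrp1 without Leca4 mutant replicate 1 or Leca4 control replicate 1. In Leca2 none of the 14 was called. The median change of the list was -0.11 in Leca4 and 0.02 in Leca2, beside 0.0060 and 0.0053 for all genes. The 6 lists share members such as Dll3 and Tbr1. Over all 6 lists, 42 genes were called in Sey, 8 in Leca4 and 3 in Leca2, and the lines stand in the same order by the share of all genes called. The Leca4 count was 4 without Leca4 mutant replicate 1 or without Leca4 control replicate 1, and 5 without Leca4 control replicate 3. The Leca2 count was 1 without Leca2 control replicate 1 and 5 without Leca4 mutant replicate 2.

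**Figure D3:**
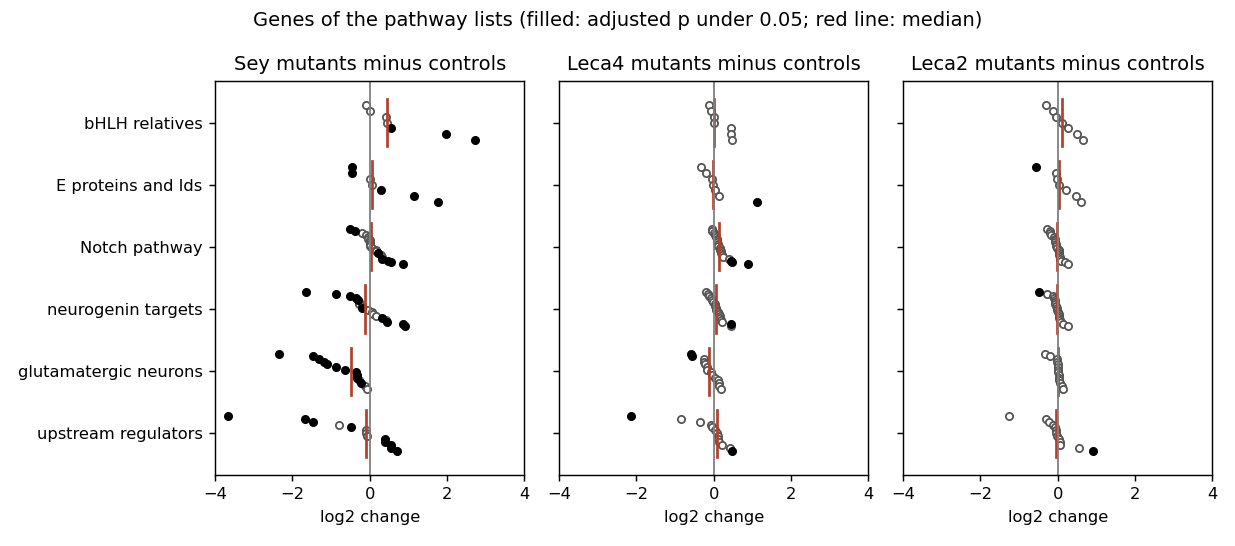
Log2 change of mutants over controls for each tested gene of the 6 pathway lists, by line, with called genes filled; each point is 1 gene. The red line is the median of a list. In Sey the glutamatergic list lies below 0 with Unc5d at -2.34, and the Id and E protein list runs from -0.47 to 1.76, while in Leca2 the called genes are Id4, Nrarp and Pax6.

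Genes listed as markers of ventral telencephalon, diencephalon and meninges were also called in Sey mutants. Of 10 tested ventral telencephalon markers, 7 rose in Sey mutants, and their mean level was 8.90 to 9.32 log2 units in Sey mutants, against 6.69 to 6.98 in controls. Dlx6 and Isl1 lay below the 40th percentile in all Sey controls, and no marker of the list did in Sey mutants. None of the 10 was called in Leca4, with mean levels of 7.13 to 7.52 in mutants and 7.38 to 7.98 in controls. None was called in Leca2, with 6.50 to 7.75 in mutants and 6.59 to 6.98 in controls. Of 6 diencephalon markers, 2 rose and 1 fell in Sey mutants, at a mean level of 7.24 to 7.61 in mutants and 6.48 to 6.66 in controls, and none was called in either Leca line. Of 5 meningeal markers, 2 rose in Sey and 1 in Leca4. That 1 was Crabp2, with a change of 1.17, while the median of the list in Leca4 was -0.23. Of 5 microglial markers, 2 rose in Leca4, at a mean level of 7.87 to 8.03 in mutants and 7.52 to 7.68 in controls. Of all genes, 9.65% rose and 8.33% fell in Sey, and 2.88% rose in Leca4. No endothelial or blood marker was called in any line. By the Y-linked and Xist probe sets, 1 of 4 Sey mutants was male and all 3 controls were. Of the Leca4 arrays, 2 of 3 mutants and 3 of 4 controls were male, and of the Leca2 arrays, 2 of 4 mutants and none of 3 controls. With a term for sex the members called stayed at 9, 1 and 3 in number. The part of the ventral, diencephalic, meningeal and microglial markers in the member results was not tested.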

How the data were processed

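The values are log2 expression values per probe set of the Affymetrix MOE430 2.0 array, deposited by the authors and made with RMA, per the submitters' processing notes (its version is not given in the sources used here). No build is stated for the probe sets. Per the labels' protocols, extraction used the RNeasy Micro kit and amplification MessageAmp Premier. The distributions of arrays of a line nearly coincide and those of the lines differ.

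Of 45101 probe sets, 34945 named 1 gene, 932 several and 9160 none, and 64 were controls. Of these, 34741 matched the RefSeq gene table of GRCm38.p6, used for names, chromosomes and neighbours only. Probe sets with at least 3 arrays above the 40th percentile of that array's non-control probe sets were kept (29474). One limma model (version 3.58.1, R 4.3.3) of 6 groups over 21 arrays, with 15 residual degrees of freedom, gave each mutant group against its littermate controls and the differences between lines. P-values were adjusted by Benjamini-Hochberg over all kept probe sets and called under 0.05. For lists, the kept probe set with the highest mean stood for its gene. A fold is a bound where no array of a group exceeded its own 40th percentile. The code was tested on simulated data. Members and lists were chosen with earlier results of these data known. Named were all members, Pax6, up to 4 called genes per list and line with the smallest p, and the 3 genes most like each member; Tcf3, Tcf4, Tcf12, Dll1, Olig1, Dcx and Isl1 were named after their values were seen where they fell outside this rule. Alternatives covered the groups fitted, a replicate block, the filter, the choice of probe set, array weights, quantile normalisation, centring, the threshold, a term for sex and each array left out.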

Additional observations from a re-analysis of the deposited data

Results flagged for a closer look

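The changes of the members differed between lines by a test of the difference itself at 19 places, given here as log2 differences from the limma fit. Between Sey and Leca4, the Sey change minus the Leca4 change was -4.01 for Neurog1 1438551_at, -1.57 for Neurog2, -0.77 and -0.91 for Neurod1 (1426413_at and 1426412_at), -0.53 and -0.67 for Neurod2 (1418995_at and 1435411_at), and -2.19 and -3.03 for Neurod4 (1436694_s_at and 1418054_at). Between Sey and Leca2, in the same order of genes and probe sets, it was -1.24 for Neurog1, -1.13 for Neurog2, -0.73 and -0.77 for Neurod1, -0.82 and -0.93 for Neurod2, and -1.13 and -1.42 for Neurod4. Between Leca4 and Leca2 it was 2.77 for Neurog1, and 1.07 and 1.61 for Neurod4. The Neurod4 differences with Sey use Sey values below the 40th percentile and have no exact size: the Sey fall was at least 4.38-fold and 2.44-fold by these probe sets, against 2.81-fold and 3.55-fold in Leca2. With a term for sex neither Neurod1 difference between Sey and Leca2 passed (adjusted p of 0.0993 and 0.0856). In the comparisons with Sey, line and strain cannot be told apart.

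One array stood apart from its group. The dim Neurog1 probe set 1450836_at read 5.55 in 1 Leca4 control, with the next control at 5.86, and the other probe set of Neurog1 showed no such gap there. Of 36 groups examined, each being 1 probe set in 1 group of arrays, 1 had such an array, and chance gives about 1 in 20. The 36 share arrays and are not independent of each other.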

How the results depend on the processing

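Of the member results, none that was called turned its direction under any alternative. Called probe sets of the members stayed at 9 in Sey, 1 in Leca4 and 3 in Leca2 when any 1 array was left out. With only the groups compared in the fit, 403 probe sets were called in Leca4 and 29 in Leca2, with 4 and 1 pathway genes, and Sey Neurod6 (adjusted p = 0.0687) and Leca2 Neurog1 (0.0549) no longer passed. Same-numbered arrays correlated at -0.34 to 0.45 over 9 pairs, above 0.1 in 3 of them. These few values do not settle whether the numbers pair the samples. With the replicate block 656 probe sets were called in Leca4 and 40 in Leca2, with 4 and 1 pathway genes, and the Sey minus Leca2 difference of Neurod1 1426413_at did not pass (0.0767). With 1 probe set per gene 2791 were called in Sey and 66 in Leca2, and 5 member genes differed between Sey and each Leca line. With the probe sets of each gene averaged 2587 were called in Sey, and again 5 and 5 members differed. Array weights called 243 probe sets and 5 pathway genes in Leca2. An adjusted p under 0.10 called 1767 probe sets in Leca4, with 2 members (the second being Neurod4 1436694_s_at). A change of at least 1.4-fold left 1855 in Sey, 581 in Leca4 and 25 pathway genes in Sey, and a term for sex left 2815 in Sey, where the Sey minus Leca2 differences of Neurod1 did not pass (0.0993 and 0.0856). Leaving out 1 array gave 50 to 128 probe sets in Leca2, 4 to 12 pathway genes in Leca4 and 1 to 5 in Leca2. Without Leca2 mutant replicate 2, or Leca2 control replicate 1, 2 or 3, the Leca2 count was 73, 50, 60 and 70. Uncalled values near 0 changed sign: Leca4 Neurod6 was -0.061 with the block and -0.0077 after quantile normalisation, and with array weights Leca4 Neurog2 was 0.011, Leca2 Neurod2 1418995_at -0.0041, Leca2 Neurod6 -0.046 and the Leca4 minus Leca2 difference of Neurod6 0.075. With 1 array left out, Leca4 Neurog2 ran from -0.10 to 0.071, Leca4 Neurod6 from -0.061 to 0.052, Leca4 Neurog1 1450836_at from -0.018 to 0.12, Leca2 Neurod6 from -0.017 to 0.087, Leca2 Neurod2 from -0.038 to 0.12 by 1418995_at and from -0.0085 to 0.11 by 1435411_at. The Leca4 minus Leca2 differences ran from -0.083 to 0.030 for Neurod6 and from -0.043 to 0.19 for Neurod1 1426413_at, and those of Neurod2 1444362_at from -0.018 to 0.17 (Sey minus Leca4) and from -0.16 to 0.016 (Sey minus Leca2). The cause of these changes was not tested. Signal near the 40th percentile limits the dim probe sets of Neurog1, Neurod2 and Neurod4.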
